A study of Arabidopsis thaliana with 24 samples.

Results

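The response to warm temperature was measured in pistils of 35S::PIF4 Arabidopsis plants, by comparing libraries from high ambient temperature (hAT, 28 °C by day and 24 °C by night) with libraries from normal ambient temperature (nAT, 21 °C by day and 18 °C by night). The comparison used the 8 libraries of this line, 4 at each temperature, of the 24 in the series, and every gene in the deposited count table. 35S::PIF4 carries a transgene that drives PIF4 from the cauliflower mosaic virus 35S promoter, which is active in most plant cell types. The line is thus built for broad overexpression and is not a model of the endogenous pattern of PIF4. The PIF4 level measured in it is given below. The other groups, used only to show where this line differed, were the wild type Col-0 and the phyB mutant (the phyB-9 allele) at both temperatures. All plants grew at nAT with 16 h of light and 8 h of dark until flowering, and then stayed there or were moved to hAT. Gynoecia of unfertilized flowers at stages 11 and 12 were collected for each sample, RNA was selected by its poly(A) tail, and the methods give 4 biological replicates of each group. In the sample records the tissue is given as pistils but the extracted material as ovules.

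Phytochrome B is a photoreceptor that also senses temperature: its active form, which warmth inactivates, represses the PIF transcription factors. PIF4, a bHLH protein of this family, activates genes of auxin synthesis, cell elongation and flowering in warm seedlings, where it binds G-box and related E-box motifs in promoters. The heat shock response is a separate pathway, in which HSFA1 factors that are present before the stress switch on HSFA2, other heat shock factors and chaperones. In the pistil, the embryo sac inside each ovule holds synergids, which secrete LURE peptides that attract the pollen tube, an egg cell and a central cell.

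The 4 nAT libraries held 21280069 to 30184035 counts and the 4 hAT libraries 19421636 to 22106467. Pairs of replicates differed by more than sampling noise in both groups, the chi-square divided by its degrees of freedom being 2.32 to 11.53 at nAT and 2.13 to 3.00 at hAT. The highest value at nAT was that of replicates 3 and 4, and replicate 4 stands apart below in genes of pollen, pollen coat and flavonoids. Counts came from genes of 2065 to 2141 bases on average at nAT and 2168 to 2211 bases at hAT. The carpel and ovule identity genes AG, SHP1, SHP2, STK, CRC, SPT, INO, BEL1 and ANT were detected in all 8 libraries, whereas the tapetum genes A9, MS2 and ATA7 had 3, 5 and 0 counts over the 4 hAT libraries and 6, 5 and 5 counts at nAT. The summed level of all 18 tapetum and pollen coat genes in the table, among them the abundant pollen coat gene GRP17, was 35.7 to 57.3 CPM at nAT and 50.7 to 54.7 CPM at hAT. That of 9 pollen genes was 52.1 to 108 and 106 to 119.5 CPM.

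PIF4 (AT2G43010, chromosome 2 from 17886101 to 17889087 of TAIR10) was measured at 5.81, 6.39, 5.79 and 5.71 CPM (the count relative to the size of the library as scaled in the fit, for replicates 1 to 4) at nAT and at 3.55, 4.57, 4.38 and 5.17 CPM at hAT. Every hAT library lay below every nAT library, and replicate 2 at nAT lay above the other 3 of its group. The log2 fold change was -0.42 ± 0.16, with an adjusted p of 0.0264 from edgeR's quasi-likelihood test, and did not reach the 2-fold change required here of a called gene. Here and below, ± after a log2 fold change, or a difference of them, is an approximate standard error. It is the size of the value divided by the square root of the test's F statistic. Without replicate 2 at nAT, or without replicate 1 or 3 at hAT, the adjusted p was 0.0886, 0.103 and 0.051. The counts do not separate transgene from endogenous PIF4 transcripts. Mean PIF4 levels from nAT to hAT were 5.93 to 4.42 CPM in 35S::PIF4, 2.11 to 2.43 CPM in Col-0 and 3.52 to 3.79 CPM in phyB. The mean of 35S::PIF4 was the highest at both temperatures, but at hAT it lay close to that of phyB. The difference in level between the lines was not tested. PHYB, which encodes the photoreceptor, had 114 ± 11.8 CPM at nAT and 126 ± 6.30 CPM at hAT (SD, n = 4 each) in 35S::PIF4, a log2 fold change of 0.15 ± 0.10 (adjusted p = 0.229).

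At hAT 1811 (8.50%) of 21312 tested genes were higher and 528 (2.48%) lower, counting as called those with an adjusted p below 0.05 and a change of 2-fold or more (edgeR quasi-likelihood test with Benjamini-Hochberg adjustment, n = 4 against 4). In 25.2% of all tested genes the 4 hAT libraries all lay above the 4 nAT libraries, and in 27.8% they all lay below, so that complete separation alone was common. The median log2 fold change of all genes was -0.01. The genes that rose were low at nAT: their median level was 0.549 CPM there and 2.58 CPM at hAT, and 1126 of them were below 1 CPM at nAT. Rises were also larger than falls. Among the higher genes 749 changed at least 4-fold, 242 at least 16-fold and 15 at least 256-fold, against 82, 6 and 0 of the lower genes. Over the 4 nAT libraries, 30 of the higher genes had no count and 80 had 1 to 3 counts, so their fold changes rest on few reads. The 10 named genes that rose most (those with a symbol, at least 5 CPM at hAT and no overlap between the groups) were all genes of the heat shock response: the small heat shock proteins HSP17.6C, HSP17.7, HSP17.6, HSP22.0, HSP17.4A, HSP23.6 and HSP21, the ascorbate peroxidase APX2, the heat shock factor HSFA7B and the HSP70 gene MED37C. The 10 that fell furthest were GRP3S, ARD, DTX26, LTP10, RDL5, PER33, SBT4.13, MLP328, WSCP and PR5, which encode secreted, cell wall, transport and defence proteins among others.

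**Figure D1:**
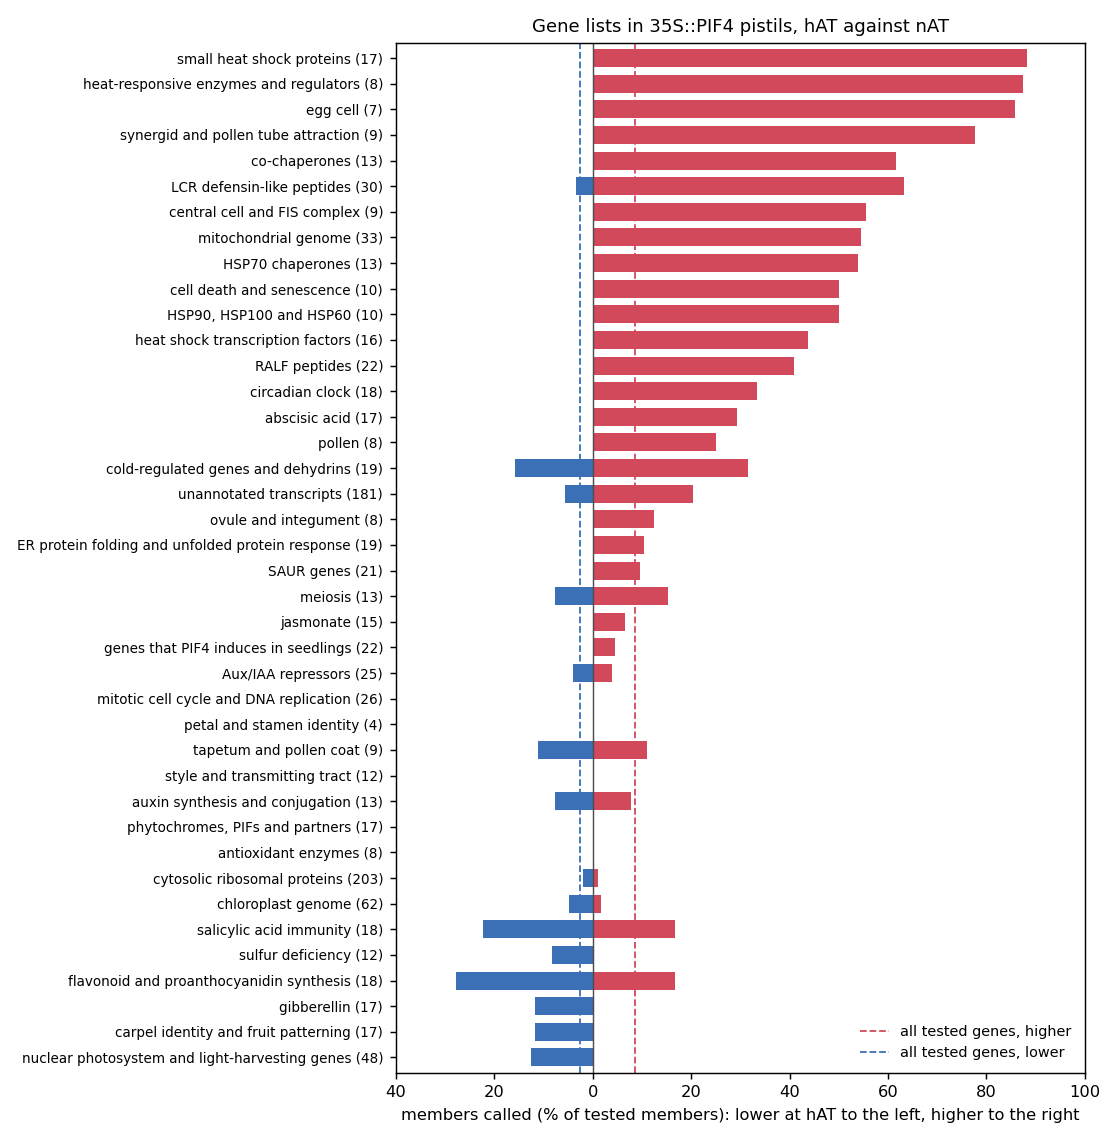
Each bar gives the percentage of tested members of a gene list that were called higher (red, right) or lower (blue, left) at hAT in 35S::PIF4, with the number of tested members in brackets, and the dashed lines mark the 8.50% and 2.48% of all tested genes. The small heat shock proteins had 15 of 17 members higher, the egg cell genes 6 of 7 tested (a filter on low counts removed other members) and the flavonoid genes 5 of 18 lower.

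Over 6 lists (heat shock factors, small heat shock proteins, HSP70 chaperones, HSP90, HSP100 and HSP60 chaperones, co-chaperones, and heat-responsive enzymes and regulators), 49 of 77 tested genes were higher and 0 were lower, with a median log2 fold change of 1.54. DESeq2's Wald test also called 0 of them lower, and 7 had a negative log2 fold change at an unadjusted p under 0.05 in edgeR. In 63 of the 77 genes all hAT libraries lay above all nAT libraries, against 25.2% of all tested genes. Below, wherever 0 genes of a list are given as called by edgeR in a direction, DESeq2 also called 0 of them, except for 1 higher gibberellin gene. The 6 lists took 0.853 to 0.968% of the counts of a library at nAT and 2.46 to 2.52% at hAT.

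Heat shock factors are the transcription factors of this response, and 7 of 16 tested were higher and 0 lower, with a median log2 fold change of 0.83. HSFA2 (AT2G26150, chromosome 2 from 11135624 to 11137792), an activator that sustains the response and is itself induced by heat, had 4.55, 7.75, 8.195 and 2.83 CPM at nAT and 217, 199, 195 and 206 CPM at hAT. The groups did not overlap, replicate 4 was the lowest at nAT, and the log2 fold change was 5.10 ± 0.22 (adjusted p = 2.64e-16). HSFA7A and HSFA7B, related factors of the same class, were nearly silent at nAT. HSFA7A had 0.168, 0.732, 0.35 and 0.232 CPM at nAT and 26.0, 26.2, 22.6 and 23.7 CPM at hAT, a log2 fold change of 5.95 ± 0.31 (adjusted p = 1.85e-14). HSFA7B had a count only in replicate 2 of the 4 nAT libraries, at 0.0665 CPM, and 7.38, 7.85, 7.97 and 8.79 CPM at hAT. Its 2 counts at nAT and 710 at hAT gave a ratio of rates of 404, with an exact 95% Poisson interval of 111 to 3342 that covers counting error only. HSFB1, HSFB2B and HSFB2A, of the class that includes repressors of the response, rose from 12.9 to 65.9 CPM, 9.83 to 32.9 CPM and 13.1 to 33.9 CPM on average, log2 fold changes of 2.35 ± 0.10, 1.74 ± 0.08 and 1.37 ± 0.13 (adjusted p at most 9.91e-10). HSFA8 rose from 2.19 to 4.56 CPM, a log2 fold change of 1.07 ± 0.20 (adjusted p = 5.63e-05), which was 0.94 without replicate 3 at nAT.

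The HSFA1 factors, the master activators of the response, were not called. HSFA1A had 9.22, 9.15, 11.1 and 10.5 CPM at nAT and 11.9, 11.7, 10.3 and 11.7 CPM at hAT, and the groups overlapped, with replicate 3 the lowest at hAT. Its log2 fold change was 0.19 ± 0.16 (adjusted p = 0.332). HSFA1B and HSFA1E had log2 fold changes of 0.16 ± 0.08 and 0.07 ± 0.14. HSFA1D had 16.2, 17.37, 14.68 and 17.9 CPM at nAT and 24.5, 24.2, 23.1 and 25.0 CPM at hAT, separated in every library but short of a 2-fold change, at 0.55 ± 0.07 (adjusted p = 6.19e-07). HSFA6A and HSFA6B, induced by drought and salt, were below the filter on low counts, with 2 and 3 counts over the nAT libraries and 19 and 28 over the hAT libraries. HSFC1 had no count in any of the 8 libraries.

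Promoters of heat shock genes were read from the TAIR10 sequence to show the element that heat shock factors bind. It is built of alternating GAA and TTC units, and 2 adjoining units read GAANNTTC or TTCNNGAA, each of which is its own reverse complement. The 6 genes shown first are members of the heat shock lists that rose at least 8-fold and hold 3 units in a row in the 250 bases before the gene start, and HSP22.0 is shown as a gene that rose without a match. Each is written 5′ to 3′ on the strand of its gene and ends at the base before the start, with matches of the 2-unit forms in capitals. The positions are chr1:19980049-19980298, plus strand, for HSP17.6C, chr3:16984868-16985117, minus strand, for HSP17.4A, chr3:23398986-23399235, plus strand, for HSFA7B, chr3:19264891-19265140, plus strand, for HSFA7A, chr2:11135374-11135623, plus strand, for HSFA2, chr5:1601955-1602204, plus strand, for DREB2A and chr4:6370088-6370337, plus strand, for HSP22.0.
HSP17.6C: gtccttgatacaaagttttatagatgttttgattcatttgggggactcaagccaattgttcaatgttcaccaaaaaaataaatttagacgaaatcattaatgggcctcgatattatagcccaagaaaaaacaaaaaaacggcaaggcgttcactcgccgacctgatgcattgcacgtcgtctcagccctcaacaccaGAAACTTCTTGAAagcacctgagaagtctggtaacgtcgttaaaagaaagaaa
HSP17.4A: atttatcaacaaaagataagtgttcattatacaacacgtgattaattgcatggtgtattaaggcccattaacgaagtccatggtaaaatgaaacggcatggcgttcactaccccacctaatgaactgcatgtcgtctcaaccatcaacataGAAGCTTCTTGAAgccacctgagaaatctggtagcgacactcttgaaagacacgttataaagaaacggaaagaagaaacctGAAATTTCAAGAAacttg
HSFA7B: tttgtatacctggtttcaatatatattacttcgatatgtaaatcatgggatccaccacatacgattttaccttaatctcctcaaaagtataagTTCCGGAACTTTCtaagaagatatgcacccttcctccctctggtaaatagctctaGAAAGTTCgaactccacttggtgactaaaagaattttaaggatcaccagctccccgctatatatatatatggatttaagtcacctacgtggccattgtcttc
HSFA7A: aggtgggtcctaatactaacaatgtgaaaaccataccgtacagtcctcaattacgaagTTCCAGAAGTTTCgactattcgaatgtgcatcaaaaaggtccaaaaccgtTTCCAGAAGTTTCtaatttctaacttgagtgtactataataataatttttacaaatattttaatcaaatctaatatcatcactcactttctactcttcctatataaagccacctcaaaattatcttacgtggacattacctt
HSFA2: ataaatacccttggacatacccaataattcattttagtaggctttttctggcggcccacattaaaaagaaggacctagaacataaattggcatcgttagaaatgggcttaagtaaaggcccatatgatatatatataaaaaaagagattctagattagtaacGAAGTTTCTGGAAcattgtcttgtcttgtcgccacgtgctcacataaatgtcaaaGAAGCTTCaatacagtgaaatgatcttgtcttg
DREB2A: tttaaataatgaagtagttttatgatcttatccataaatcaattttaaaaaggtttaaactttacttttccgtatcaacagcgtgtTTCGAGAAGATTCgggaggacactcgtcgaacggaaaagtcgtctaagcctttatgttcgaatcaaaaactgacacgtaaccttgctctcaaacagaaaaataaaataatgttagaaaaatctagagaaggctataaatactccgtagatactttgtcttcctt
HSP22.0: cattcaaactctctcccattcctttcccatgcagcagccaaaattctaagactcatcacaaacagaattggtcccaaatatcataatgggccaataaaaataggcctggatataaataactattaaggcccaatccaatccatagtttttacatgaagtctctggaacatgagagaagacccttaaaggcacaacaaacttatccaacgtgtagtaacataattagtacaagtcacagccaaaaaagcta

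In each of the first 6 promoters the longest run in capitals was 13 bases. The run nearest to the gene ended 5 bases before the start in HSP17.4A, 25 in HSFA2, 40 in HSP17.6C, 94 in HSFA7B, 129 in HSFA7A and 151 in DREB2A. HSFA2 and HSP17.4A also hold a G-box, CACGTG, the core motif that PIF proteins bind, which lies between the 2 runs in HSFA2. Over the windows of 250 bases before to 50 bases after the start, either 2-unit form was present in 18.76% of the 21035 tested genes with a window, in 21.37% of the genes called higher (375 of 1755, exact 95% binomial interval 19.47 to 23.36) and in 17.48% of those called lower. At 3 units the share was 0.542% of all tested genes, 1.43% of those called higher and 4.26% of the 235 that rose at least 16-fold. In the 6 heat shock lists, 28 of the 49 genes called higher and 3 of the 28 not called held a 2-unit form. The G-box was present in 8.58% of all windows, 8.89% of those of higher genes and 7.18% of those of lower genes. The E-box CACATG, or CATGTG on the other strand, was present in 12.68%, 13.79% and 15.15%. In the 6 heat shock lists, a G-box was present in 9 of the 49 genes called higher and 2 of the 28 not called. The E-box was present in 2 of the 49 and 3 of the 28. These shares describe letters in a window and not binding.

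Small heat shock proteins, which hold unfolding proteins in a state from which they can be refolded, had the largest change of the lists: 15 of 17 genes were higher, with a median log2 fold change of 6.59 against -0.01 over all genes. HSP17.7 (AT5G12030, chromosome 5 from 3883957 to 3884838), a cytosolic protein of class II, had 0.0421, 0.0998, 0.117 and 0.0464 CPM at nAT and 217, 212, 218 and 242 CPM at hAT. Every hAT library was at least 3 orders of magnitude above every nAT library, and the log2 fold change was 11.36 ± 0.21 (adjusted p = 3.85e-24). HSP17.6C (AT1G53540, chromosome 1 from 19980299 to 19981199), of cytosolic class I, had 0.0421, 0, 0.0777 and 0 CPM at nAT and 118, 118, 115 and 121 CPM at hAT. Its 3 counts at nAT and 10479 at hAT gave a ratio of 3975 with an exact 95% Poisson interval of 1360 to 19277. HSP17.4A of the same class had 2 counts at nAT and 37.9, 33.5, 38.0 and 39.7 CPM at hAT, a ratio of 1879 (interval 520 to 15520).

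The rise extended over the compartments in which these proteins work. HSP22.0, of the endoplasmic reticulum, had 0.0842, 0.0333, 0.0777 and 0.139 CPM at nAT and 133, 124, 128 and 139 CPM at hAT. HSP23.6, of mitochondria, had no count in nAT replicates 3 and 4 and 134, 123, 125 and 129.6 CPM at hAT. HSP21, of chloroplasts, had counts only in replicate 1 at nAT, at 0.253 CPM, and 17.71, 15.41, 16.1 and 17.9 CPM at hAT. The 3 log2 fold changes were 10.59 ± 0.21, 10.26 ± 0.27 and 8.01 ± 0.44 (adjusted p at most 4.90e-13). HSP17.8 and HSP17.4B were already present at nAT. HSP17.8 had 5.81, 6.35, 6.64 and 3.76 CPM at nAT and 408, 369, 373 and 397 CPM at hAT, and HSP17.4B had 16.4 to 217 CPM from nAT to hAT on average, log2 fold changes of 6.08 ± 0.14 and 3.72 ± 0.13. The exceptions were HSP14.7, with 8.29 ± 0.432 CPM at nAT and 8.28 ± 0.637 CPM at hAT (SD, n = 4 each), and HSP15.4, with 11.9, 12.0, 10.5 and 15.1 CPM at nAT and 8.21, 5.98, 5.56 and 7.92 CPM at hAT. For HSP15.4 all hAT libraries lay below all nAT libraries, and its log2 fold change of -0.84 ± 0.11 did not reach a 2-fold change. Several of these genes are close paralogs, the sources used here do not say how shared reads were counted, and the split of counts among class I members is therefore uncertain.

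**Figure D2:**
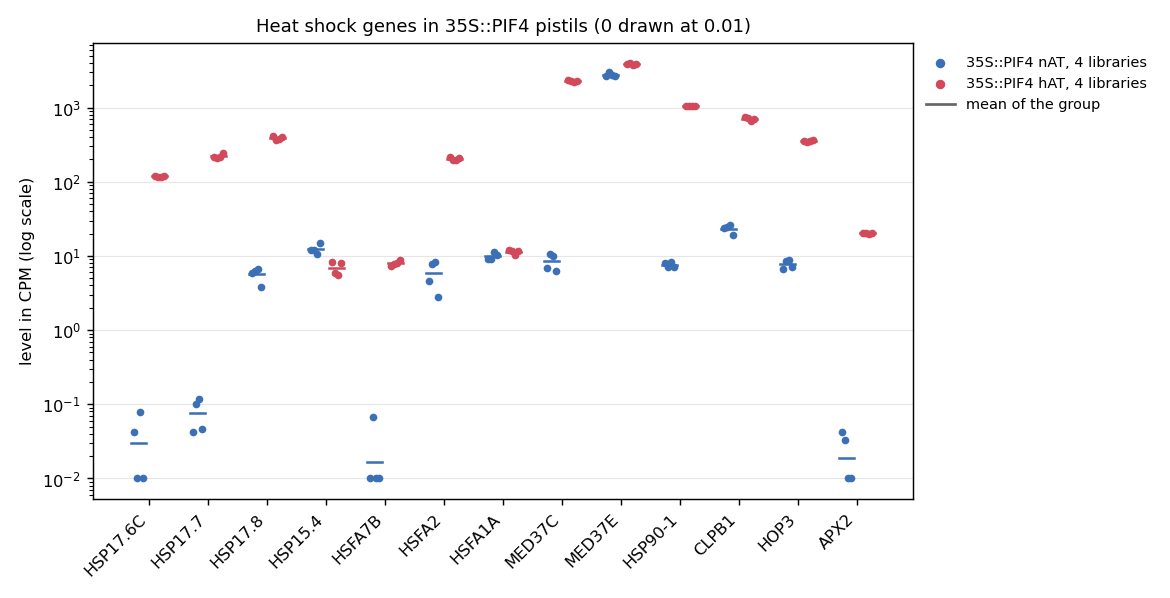
Points are the level in CPM (log axis, 0 drawn at 0.01) of 13 heat shock genes in each 35S::PIF4 library, blue at nAT and red at hAT, and lines are group means. Libraries of the groups are separated in all genes but HSFA1A, and the level at hAT lay above that at nAT except in HSP15.4.

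HSP70 chaperones bind unfolded stretches of proteins, and 7 of 13 tested were higher and 0 lower, with a median log2 fold change of 1.02. The heat-inducible cytosolic HSP70 gene MED37C (AT3G12580, chromosome 3 from 3991117 to 3993886, also called HSP70-4) had 6.95, 10.5, 10.1 and 6.36 CPM at nAT and 2329, 2316, 2188 and 2264 CPM at hAT, a log2 fold change of 8.05 ± 0.18 (adjusted p = 1.70e-22). HSP70-5 and HSP70-8 rose from 7.78 to 187 CPM and 5.93 to 106 CPM, by 4.58 ± 0.09 and 4.17 ± 0.07 on the log2 scale. The constitutive cytosolic gene MED37E (HSC70-1) had 2693, 3064, 2759 and 2629.7 CPM at nAT and 3896, 3939.8, 3785 and 3872 CPM at hAT, separated in every library but with a log2 fold change of only 0.48 ± 0.04. The mitochondrial members were split, with HSP70-10 higher from 178 to 451 CPM and HSP70-9 at 289 to 237 CPM (log2 fold change -0.28 ± 0.05, not called).

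Of the HSP90, HSP100 and HSP60 genes 5 of 10 were higher and 0 lower, with a median of 0.98. HSP90-1 (AT5G52640, chromosome 5 from 21352557 to 21355147), the inducible member of the cytosolic HSP90 family that folds signalling proteins, had 7.92, 7.05, 8.31 and 7.11 CPM at nAT and 1062, 1049.6, 1036 and 1066 CPM at hAT, a log2 fold change of 7.11 ± 0.10 (adjusted p = 3.27e-26). Of the cytosolic paralogs beside it, HSP81-2 rose from 782 to 1663 CPM (1.09 ± 0.06) and HSP90-3 had 636 to 992 CPM (0.64 ± 0.06, not called). CLPB1, the HSP101 disaggregase needed for acquired thermotolerance, had 23.8, 24.4, 25.8 and 19.0 CPM at nAT and 737, 733, 663 and 708 CPM at hAT, a log2 fold change of 4.93 ± 0.14 (adjusted p = 4.50e-20). CLPB4 and CLPB3, its mitochondrial and chloroplast counterparts, rose from 38.7 to 183 CPM and 86.3 to 259 CPM.

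Co-chaperones hand clients to HSP70 and HSP90, and 8 of 13 were higher and 0 lower, with a median of 1.54. FKBP65 (also called ROF2), a peptidyl-prolyl isomerase that binds HSP90, had 6.99, 6.65, 6.80 and 5.81 CPM at nAT and 615, 584, 607 and 624 CPM at hAT, a log2 fold change of 6.53 ± 0.14 (adjusted p = 9.22e-23). HOP3, which bridges HSP70 and HSP90, rose from 7.74 to 354 CPM (5.51 ± 0.10), the J-protein gene AT2G20560 from 2.87 to 160.3 CPM (5.77 ± 0.15) and BAG6 from 11.8 to 269.5 CPM (4.51 ± 0.13). HOP1, with 92.7 to 78.1 CPM, and P23-1, with 291 to 219 CPM, were lower in every hAT library without reaching a 2-fold change (-0.25 ± 0.07 and -0.41 ± 0.05).

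Of 8 tested heat-responsive enzymes and regulators 7 were higher and 0 lower, with a median of 2.95. APX2, a cytosolic ascorbate peroxidase under the control of heat shock factors, had 2 counts over the nAT libraries and 20.3, 20.2, 19.99 and 20.3 CPM at hAT, a ratio of 1021 (exact 95% Poisson interval 282 to 8435). MBF1C, a transcriptional coactivator of thermotolerance, had 6.19, 7.85, 10.4 and 3.99 CPM at nAT and 128, 109, 127 and 139.9 CPM at hAT, a log2 fold change of 4.12 ± 0.17 (adjusted p = 1.47e-16). DREB2A, a transcription factor of drought and heat responses that induces HSFA3, had 1.52, 1.397, 1.44 and 1.39 CPM at nAT and 20.3, 19.0, 15.9 and 20.3 CPM at hAT, a log2 fold change of 3.71 ± 0.17 (adjusted p = 7.97e-16), while HSFA3 had 3.2002 to 4.90 CPM (0.61 ± 0.17, not called). HSA32, which prolongs acquired thermotolerance, and the galactinol synthase gene GOLS1 rose from 6.75 to 60.2 CPM and 47.7 to 133 CPM. HSBP, a negative regulator that binds heat shock factors, had 99.8 ± 4.30 CPM at nAT and 78.5 ± 3.41 CPM at hAT (SD, n = 4 each) and lay lower in every hAT library, at a log2 fold change of -0.35 ± 0.06.

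Few folding genes of the endoplasmic reticulum were called. Of 19, 2 were higher and 0 lower, with a median log2 fold change of -0.11, close to the 8.50% and 2.48% of all genes. In 10 of the 19 every hAT library lay below every nAT library, and in 5 above, against 27.8% and 25.2% of all genes. Their summed level was 5151 to 5480 CPM at nAT and 4570 to 4652 CPM at hAT. The genes called higher were ERDJ3A, a J-protein of the reticulum that rose from 12.96 to 73.3 CPM (2.50 ± 0.09), and MED37B (the stress-induced BIP3), at 0.211, 0.233, 0.0388 and 0.0464 CPM at nAT and 0.415, 1.205, 0.566 and 1.19 CPM at hAT. BIP, the abundant HSP70 of this compartment, had 644 ± 30.3 CPM at nAT and 564 ± 8.69 CPM at hAT (SD, n = 4 each), and BZIP60, a transcription factor of the unfolded protein response, had a log2 fold change of -0.10 ± 0.15. Of 8 antioxidant enzymes 0 were called (4 higher and 3 lower at an unadjusted p under 0.05), and their log2 fold changes ran from -0.63 for the superoxide dismutase gene CSD1 to 0.61 for the catalase gene CAT3. APX1, the constitutive counterpart of APX2, had 704, 814, 686 and 734 CPM at nAT and 592, 570.4, 569 and 598 CPM at hAT (-0.33 ± 0.05).

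The phyB-PIF pathway itself moved little: of 17 phytochrome, PIF and partner genes 0 were higher and 0 lower (5 and 2 at an unadjusted p under 0.05), with a median of 0.14. HY5, a bZIP factor that opposes PIFs, had the largest value, with 20.5, 21.5, 24.1 and 18.6 CPM at nAT and 37.1, 32.1, 34.1 and 37.3 CPM at hAT and a log2 fold change of 0.73 ± 0.12 (adjusted p = 1.87e-05). PIF3 had 12.2 to 16.6 CPM (0.44 ± 0.10) and PIF5 19.2 to 21.2 CPM (0.14 ± 0.10). Of 22 genes that PIF4 induces in seedlings, 1 was higher and 0 lower, against 8.50% and 2.48% of all tested genes, with a median of 0.10. The one that rose was FT (AT1G65480, chromosome 1 from 24331373 to 24333999), the mobile signal for flowering, with 0.632, 1.13, 0.893 and 0.929 CPM at nAT and 6.36, 6.73, 6.69 and 6.87 CPM at hAT, a log2 fold change of 2.87 ± 0.20 (adjusted p = 3.47e-12). YUC8, an auxin synthesis gene, had 2.23, 2.40, 2.37 and 2.79 CPM at nAT and 2.81, 2.62, 3.82 and 3.89 CPM at hAT with overlapping groups (0.42 ± 0.17), IAA19 had a log2 fold change of 0.27 ± 0.15 and PIL1 one of -0.26 ± 0.12.

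Genes of auxin were spread on both sides of 0. Of 13 genes of auxin synthesis and conjugation 1 was higher and 1 lower, with a median of -0.53. GH3.17, which conjugates auxin to glutamate, rose from 5.75 to 17.0 CPM (1.56 ± 0.11), and GH3.3, of the same enzyme family, fell from 22.1 to 7.61 CPM (-1.54 ± 0.12). TAA1, the first enzyme of the main synthesis route, had 84.2, 87.8, 89.2 and 80.5 CPM at nAT and 52.4, 50.2, 52.4 and 53.4 CPM at hAT, lower in every library at -0.71 ± 0.05 but not called. Of 25 Aux/IAA repressor genes 1 was higher (IAA6, from 0.222 to 0.873 CPM) and 1 lower (IAA33, from 3.71 to 1.59 CPM). Of 21 SAUR genes, which promote cell expansion, 2 were higher (SAUR68 and SAUR36) and 0 lower. The SAUR count was close to the 8.50% higher and 2.48% lower of all tested genes.

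Genes of the embryo sac were described by 3 lists of its cell types. Since a gene near 0 at nAT passes the filter on low counts only where it is high in another group, the counts of these lists, and of the LCR and RALF peptides below, describe the tested members and not the lists as a whole. In whole pistils, fewer cells of a type and less RNA per cell cannot be told apart, and the same holds for more of either. Of 9 genes of synergids and pollen tube attraction 7 were higher and 0 lower, with a median of 3.98. LURE1.3 (AT5G43513, chromosome 5 from 17477943 to 17478393), a secreted defensin-like attractant, had 0, 0.0665, 0.0388 and 0.418 CPM at nAT and 10.7, 11.9, 11.9 and 10.4 CPM at hAT. Replicate 4 stood above the other nAT libraries but far below every hAT library, and the log2 fold change was 6.49 ± 0.29 (adjusted p = 5.20e-16). LURE1.2 had 0.211, 0.166, 0.0777 and 0.186 CPM at nAT and 10.2, 9.39, 11.8 and 8.38 CPM at hAT. LURE1.4 had 0.0842, 0.2, 0.0777 and 0.279 CPM at nAT and 8.12, 6.19, 9.29 and 7.83 CPM at hAT. LURE1.5 and LURE1.1 rose from 0.336 to 12.3 CPM and from 0.313 to 4.81 CPM on average, again with replicate 4 the highest at nAT. These LURE1 genes are near copies of each other, so the division of reads among them is uncertain. MYB98, the transcription factor of synergids that controls LURE genes, had 0.505, 0.699, 0.233 and 0.325 CPM at nAT and 2.77, 3.12, 3.49 and 2.88 CPM at hAT, a log2 fold change of 2.75 ± 0.25 (adjusted p = 6.77e-10). LRE, which encodes a GPI-anchored protein of synergids, rose from 0.152 to 0.661 CPM (2.04 ± 0.57). FER, the receptor kinase that acts with LRE and is expressed far beyond the synergids, had 209, 195, 204 and 202 CPM at nAT and 189, 194, 180.4 and 176 CPM at hAT, with the lowest nAT and highest hAT libraries almost level, and a log2 fold change of -0.13 ± 0.07 (adjusted p = 0.117).

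Of 7 tested egg cell genes 6 were higher and 0 lower, with a median of 4.02. EC1.3 (AT2G21750, chromosome 2 from 9283367 to 9283774), a small cysteine-rich protein that the egg cell secretes to activate sperm, had 0.421, 0.765, 0.427 and 0.743 CPM at nAT and 9.50, 8.89, 9.33 and 11.1 CPM at hAT, a log2 fold change of 4.02 ± 0.21 (adjusted p = 1.59e-14). EC1.1, EC1.2 and EC1.5 rose by 4.27 ± 0.34, 4.15 ± 0.36 and 3.44 ± 0.19 on the log2 scale. EC1.4 was present at nAT, with 6.66, 5.72, 5.71 and 7.06 CPM at nAT and 10.2, 8.89, 10.2 and 10.7 CPM at hAT, and its log2 fold change of 0.67 ± 0.12 did not reach a 2-fold change. The egg cell proteases AT2G35615 (ECS2) and AT1G31450 (ECS1), which degrade LURE1 after fertilization, had 0.8, 1.33, 0.66 and 3.11 CPM at nAT and 23.3, 22.5, 24.1 and 23.1 CPM at hAT and 0.674, 1.03, 0.855 and 1.63 CPM at nAT and 16.0, 15.9, 16.1 and 17.76 CPM at hAT. Replicate 4 was the highest nAT library for both proteases, and both rose by about the same factor, 4.02 ± 0.22 and 3.99 ± 0.15. RKD2, a transcription factor of the egg cell that was below the filter, had 0 counts over the nAT libraries and 29 over the hAT libraries. Summed over 9 egg cell genes, the level was 8.51 to 13.9 CPM at nAT, highest in replicate 4, and 70.3 to 78.6 CPM at hAT.

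Of 9 genes of the central cell and the FIS Polycomb complex, which represses endosperm growth before fertilization, 5 were higher and 0 lower, with a median of 1.26. MEA (AT1G02580, chromosome 1 from 544733 to 549202), the histone methyltransferase of the complex, had 0.253, 0.2, 0.388 and 0.465 CPM at nAT and 3.505, 3.12, 3.25 and 3.204 CPM at hAT, a log2 fold change of 3.34 ± 0.29 (adjusted p = 3.41e-10). FIS2, its zinc finger partner, rose from 0.158 to 1.54 CPM (3.32 ± 0.39), and HDG6 (FWA), an imprinted homeobox gene, from 0.0504 to 1.61 CPM (4.87 ± 0.52). ESF1.2, a cysteine-rich peptide of the central cell, rose from 0.149 to 1.2998 CPM (3.00 ± 0.40). AGL61, a MADS-box gene of the central cell, rose from 0.324 to 0.774 CPM (1.26 ± 0.42, adjusted p = 0.014) but had a log2 fold change of 0.91 and an adjusted p of 0.0527 without replicate 1 at nAT. AGL80, the partner of AGL61, had 1.35, 2.06, 2.33 and 1.63 CPM at nAT and 2.49, 1.41, 3.06 and 2.98 CPM at hAT, which overlap (0.41 ± 0.21), and the broadly expressed members FIE and MSI1 had log2 fold changes of -0.13 ± 0.08 and -0.40 ± 0.09.

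LCR genes encode defensin-like peptides, several of them made in synergids, and 30 of 73 in the table passed the filter on low counts. Of those, 19 were higher and 1 was lower, with a median log2 fold change of 2.69. LCR48 had 0.0421, 0.632, 0.35 and 0.697 CPM at nAT and 12.6, 11.1, 12.9 and 14.6 CPM at hAT, a log2 fold change of 4.86 ± 0.24 (adjusted p = 5.81e-15), and LCR45 rose from 0.146 to 3.53 CPM (4.52 ± 0.38). LCR19 had no count in any nAT library and 2.21, 1.33, 1.13 and 1.51 CPM at hAT, at least 52.0-fold higher against a floor of 3 counts over the group. LCR65 had 1 count at nAT, in replicate 4, and 218 at hAT, a ratio of 248 (exact 95% Poisson interval 44.1 to 9843). LCR26 fell from 1.91 to 0.946 CPM at a log2 fold change of -1.01 ± 0.22, which passed 1 by little and fell short of it without replicate 2 or 4 at nAT or replicate 1, 2 or 3 at hAT (-0.87 to -0.997). RALF peptides are ligands of FERONIA-type receptors, and 22 of 34 in the table were tested: 9 were higher and 0 lower, with a median of 0.70. RALFL28 had 0, 0.0665, 0 and 0.139 CPM at nAT and 5.07, 6.81, 7.26 and 7.87 CPM at hAT and a log2 fold change of 6.94 ± 0.38 (adjusted p = 5.33e-14), and RALFL5 and RALFL29 rose from 0.0934 to 4.70 CPM and 0.303 to 6.92 CPM. The most abundant RALF gene by counts, RALFL34, had 194, 213, 182 and 190.3 CPM at nAT and 121, 109.7, 113 and 115 CPM at hAT and was lower in every library (-0.76 ± 0.06, not called), and the summed level of the family was 334.7 to 422.2 CPM at nAT and 302.6 to 328.1 CPM at hAT.

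**Figure D3:**
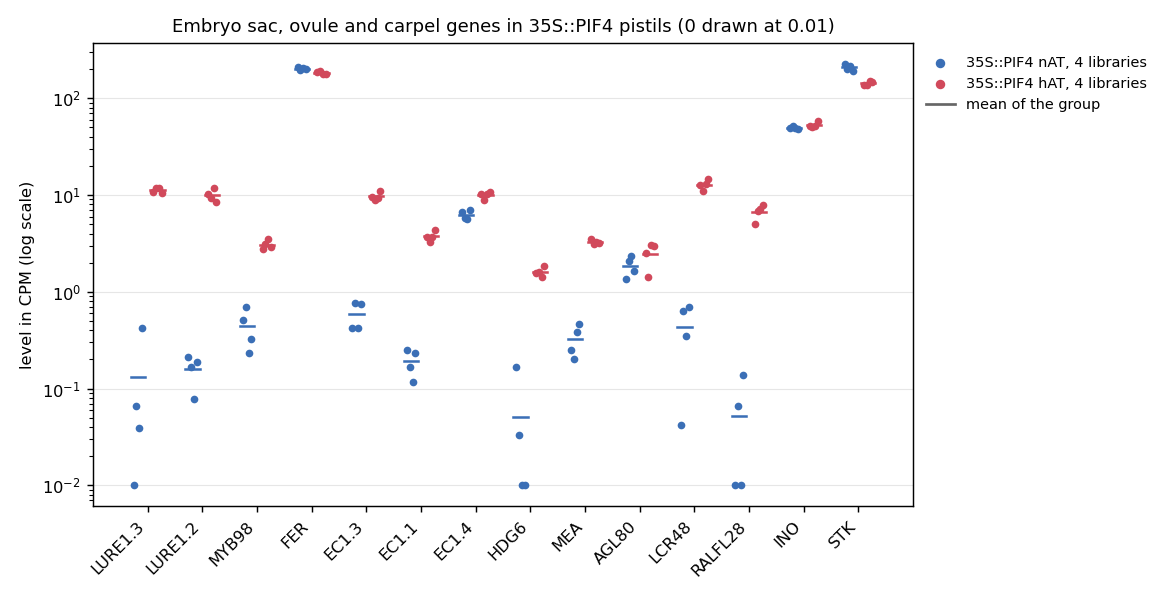
Points are the level in CPM (log axis, 0 drawn at 0.01) of 14 genes of the embryo sac, ovule and carpel in each 35S::PIF4 library, blue at nAT and red at hAT, with lines at the group means. LURE1, EC1, MEA and LCR48 were higher at hAT with no overlap, AGL80 and INO overlapped, and FER and STK were lower in every hAT library without passing a 2-fold change.

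Identity genes of the surrounding tissues changed less. Of 17 genes of carpel identity and fruit patterning 0 were higher and 2 lower, against 8.50% and 2.48% of all genes, with a median of -0.20. In 10 of the 17 every hAT library lay below every nAT library, and in 1 above, against 27.8% and 25.2% of all genes. Their summed level was 1306 to 1373 CPM at nAT and 1085 to 1122 CPM at hAT. The genes called lower were HEC1, a bHLH factor of transmitting tract and stigma, with 12.6, 13.5, 13.7 and 9.99 CPM at nAT and 4.61, 5.48, 5.09 and 5.63 CPM at hAT (-1.26 ± 0.15, adjusted p = 8.93e-08), and its paralog HEC2, with 39 counts over the nAT libraries and 2 over the hAT libraries, 17.1-fold lower (exact 95% Poisson interval 4.44 to 146). HEC3 had 23.8 to 14.71 CPM (-0.69 ± 0.10, not called). STK, the MADS-box gene of ovule identity, had 228, 203, 214 and 193 CPM at nAT and 137, 137, 150.2 and 146 CPM at hAT, lower in every library at -0.55 ± 0.06 without being called, and SHP1 and SHP2 had 0.02 ± 0.06 and -0.13 ± 0.08. Of 8 ovule and integument genes 1 was higher and 0 lower, with a median of 0.10. INO, of the outer integument, had 49.2, 51.4, 49.4 and 48.5 CPM at nAT and 52.3, 50.9, 51.9 and 58.0 CPM at hAT with overlapping groups (0.10 ± 0.09), and ANT, which promotes integument growth, had 120.3 to 87.5 CPM (-0.46 ± 0.05). The higher gene was WUS, a regulator of ovule patterning, at 0.463, 0.2, 0 and 0.604 CPM at nAT and 1.15, 0.748, 0.848 and 1.05 CPM at hAT (1.63 ± 0.47, adjusted p = 0.00492). Of 12 style and transmitting tract genes 0 were called (3 higher and 4 lower at an unadjusted p under 0.05), with a median of 0.04 and values from -0.85 for AGP4 to 0.57 for BEE1. NGA1 and SRS1 (STY1), regulators of style growth, had -0.71 ± 0.13 and -0.77 ± 0.09.

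Markers of other floral tissues were counted as well, beside the 8.50% of all tested genes that were higher and the 2.48% that were lower. Of 9 tested tapetum and pollen coat genes 1 was higher and 1 lower. The lower count was 2 in each fit without 1 library, with DESeq2 and with no filter, and 0 with the 8 libraries of the line alone. The higher count was 0 in 5 of the fits without 1 library and 2 without replicate 4 at nAT. The lower gene was EXL4, from 0.522 to 0.0427 CPM (-3.37 ± 0.67), and the higher gene AMS, from 0.176 to 0.48 CPM (1.46 ± 0.60, adjusted p = 0.0424), whose adjusted p rose to between 0.0635 and 0.150 in 5 of the 8 fits without 1 library. GRP17, an abundant pollen coat protein, had 8.85, 3.99, 3.22 and 17.42 CPM at nAT and 11.7, 12.0, 11.6 and 12.4 CPM at hAT, and replicate 4 was the highest of all 8 libraries. Its log2 fold change was 0.55 ± 0.41 (adjusted p = 0.268), and it was 1.18 (adjusted p = 0.0183) without replicate 4 at nAT. Of 8 pollen genes 2 were higher and 0 lower (SWEET5, from 1.67 to 3.84 CPM, and BCP1, from 3.57 to 7.08 CPM). BCP1 had a log2 fold change of 0.85 to 0.99 in 4 of the fits without 1 library. PME5 (VANGUARD1), needed for growth of the pollen tube, had 43.8, 28.9, 29.8 and 59.7 CPM at nAT and 74.3, 73.2, 66.5 and 70.7 CPM at hAT (0.82 ± 0.25, not called), and it reached 1.06 (adjusted p = 0.00129) without replicate 4 at nAT. Summed over 9 pollen genes, the level was 78.6, 57.2, 52.1 and 108 CPM at nAT and 106 to 119.5 CPM at hAT, so that replicate 4 at nAT lay within the hAT range, and the sperm cell gene DUO1 had 1 count at nAT and 0 at hAT. The part of pollen RNA in the other results was not tested. The petal and stamen genes AP3 and PI had log2 fold changes of -0.28 ± 0.08 and 0.43 ± 0.16, and 0 of 4 such genes were called (1 higher and 3 lower at an unadjusted p under 0.05). Of 13 meiosis genes 2 were higher and 1 lower: ASY1 and SYN1 (REC8), of the meiotic chromosome axis, rose from 0.101 to 0.995 CPM and 0.838 to 2.98 CPM, and MSH4, of crossover formation, fell from 2.17 to 0.923 CPM.

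The circadian clock list had 6 of 18 genes higher and 0 lower, with a median of 0.84. In 14 of the 18 all hAT libraries lay above all nAT libraries, against 25.2% of all tested genes. CCA1, a MYB factor of the morning loop, had 134, 143, 148 and 100.2 CPM at nAT and 298, 303, 298 and 314 CPM at hAT, a log2 fold change of 1.21 ± 0.14 (adjusted p = 6.44e-08). LHY, its paralog, had 398, 417, 441 and 304 CPM at nAT and 590.3, 599.9, 591 and 608 CPM at hAT (0.61 ± 0.12, not called), and replicate 4 was the lowest nAT library for both. ELF4, of the evening complex, rose from 0.278 to 1.66 CPM (2.52 ± 0.41), BOA, a GARP factor of the evening loop, from 3.56 to 12.2 CPM (1.79 ± 0.11) and ADO3 (FKF1), a blue light receptor that promotes flowering, from 0.6 to 3.23 CPM (2.44 ± 0.31). APRR1 (TOC1) had 40.5 to 75.3 CPM (0.89 ± 0.07) and GI 46.3 to 52.8 CPM (0.19 ± 0.11), neither called. The sources used here do not give the time of collection, and its part in these values was not tested.

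Cold-regulated genes moved in both directions, with 6 of 19 higher and 3 lower and a median of 0.59. DREB1C (CBF2), a transcription factor induced by cold and by the clock, had 0, 0.0998, 0.0388 and 0.139 CPM at nAT and 2.21, 1.87, 1.70 and 1.88 CPM at hAT, a log2 fold change of 4.68 ± 0.56 (adjusted p = 1.01e-07). DREB1B (CBF1) had no count at nAT and 57 at hAT, at least 21.6-fold higher. COR27, a regulator of clock and freezing tolerance, rose from 0.314 to 3.02 CPM (3.27 ± 0.27) and KIN1, a small hydrophilic protein, from 3.21 to 14.8 CPM (2.23 ± 0.19). RD29A fell from 4.32 to 1.07 CPM (-2.01 ± 0.22), COR15A from 20.3 to 8.28 CPM (-1.30 ± 0.12) and COR15B from 2.99 to 0.771 CPM (-1.96 ± 0.31).

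The hormone lists below stand beside 8.50% higher and 2.48% lower of all tested genes. Among hormone genes, those of abscisic acid had 5 of 17 higher and 0 lower, with a median of 0.47. NCED3, which catalyses the rate-limiting cleavage of carotenoids, had 1.35, 2.30, 1.55 and 1.58 CPM at nAT and 5.21, 5.11, 4.38 and 4.03 CPM at hAT, a log2 fold change of 1.45 ± 0.22 (adjusted p = 5.63e-06), and its paralogs NCED9 and NCED6, known from seeds, rose from 0.137 to 1.17 CPM and 0.233 to 1.59 CPM. CYP707A3, which breaks abscisic acid down, rose from 2.55 to 8.44 CPM (1.73 ± 0.20). Of 17 gibberellin genes 0 were higher and 2 lower, both of them GA 2-oxidases that inactivate the hormone: GA2OX1 had 4.21, 3.43, 3.69 and 3.48 CPM at nAT and 0.461, 0.332, 0.518 and 0.824 CPM at hAT (-2.79 ± 0.29, adjusted p = 1.05e-08), and GA2OX8 fell from 1.79 to 0.535 CPM. The gibberellin receptor gene GID1C had 4.51, 4.99, 4.19 and 7.71 CPM at nAT and 10.9, 9.51, 10.7 and 11.1 CPM at hAT and lay at the threshold, at 0.99 ± 0.13 and above 1 without replicate 4 at nAT (1.204). Of 15 jasmonate genes 1 was higher, the repressor gene TIFY10A (JAZ1), from 14.1 to 36.0 CPM (1.36 ± 0.12). The storage protein gene VSP1, induced by jasmonate, had 6084, 7072, 6427 and 6923 CPM at nAT and 3746, 3573, 3709 and 3968 CPM at hAT (-0.82 ± 0.05, not called). Of 18 genes of salicylic acid immunity 3 were higher and 4 lower, with a median of -0.12. PR5, a thaumatin-like protein, had 59.0, 75.6, 63.1 and 74.4 CPM at nAT and 15.2, 14.5, 14.5 and 16.7 CPM at hAT, a log2 fold change of -2.16 ± 0.08 (adjusted p = 3.28e-17), and NIMIN-1 fell from 1.77 to 0.653 CPM, while WRKY33 rose from 0.7 to 2.95 CPM (2.09 ± 0.25). PR1 was lower at -1.16 ± 0.46 (adjusted p = 0.0353), a call that 5 of the 8 fits without 1 library did not give.

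Of 10 genes of cell death and senescence 5 were higher and 0 lower, with a median of 0.75. CEP1 (AT5G50260), a cysteine endopeptidase of cells in programmed death, had 3.33, 2.99, 2.49 and 3.11 CPM at nAT and 12.3, 11.3, 12.6 and 13.4 CPM at hAT, a log2 fold change of 2.05 ± 0.13 (adjusted p = 4.07e-13). NAC029 (NAP), a NAC factor of senescence, had 2.36, 2.03, 1.63 and 4.41 CPM at nAT and 13.004, 12.0, 14.6 and 12.4 CPM at hAT (2.34 ± 0.21) and DMP4 rose from 1.65 to 4.61 CPM. SAG12, a protease gene of late senescence, had no count at nAT and 0.461, 0.748, 1.18 and 0.778 CPM at hAT, at least 26.6-fold higher, a level still near 1 CPM.

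In the flavonoid pathway 3 of 18 genes were higher and 5 lower, with a median of -0.06. The lower ones were 4 enzymes of the early steps and the flavonol branch and MYB11, a transcription factor that activates them. CHS, chalcone synthase, had 1153, 1318, 1189 and 964 CPM at nAT and 540.0, 533, 525 and 561 CPM at hAT (-1.10 ± 0.07, adjusted p = 2.75e-13). CHI1, chalcone isomerase, had 187, 189.6, 184 and 145 CPM at nAT and 66.4, 64.7, 67.2 and 63.6 CPM at hAT (-1.43 ± 0.08, adjusted p = 1.18e-13). CYP75B1, the flavonoid 3′-hydroxylase, had 163, 154, 166 and 106 CPM at nAT and 42.8, 43.2, 43.1 and 45.5 CPM at hAT (-1.76 ± 0.09, adjusted p = 3.10e-14), and FLS1, flavonol synthase, fell from 475 to 204 CPM (-1.22 ± 0.09). Replicate 4 was the lowest nAT library for each of these 4 genes and still lay above every hAT library. The higher ones were the late enzymes DFR, LDOX and BAN at low levels, with BAN, the anthocyanidin reductase of proanthocyanidin synthesis in seed coats, from 0.446 to 3.08 CPM (2.80 ± 0.24, adjusted p = 2.67e-10).

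Several large families moved together by less than the fold threshold. Of 203 cytosolic ribosomal protein genes 2 were higher and 4 lower, but in 177 every hAT library lay below every nAT library, against 27.8% of all genes, and the median log2 fold change was -0.49. Their summed level was 71990.0 to 78120.0 CPM at nAT and 50640.0 to 54020.0 CPM at hAT. Of 26 genes of the mitotic cycle and DNA replication 0 were called (1 higher and 23 lower at an unadjusted p under 0.05). In 24 of them every hAT library lay below every nAT library, against 27.8% of all genes, and the median was -0.47. PCNA, the sliding clamp of DNA polymerase, had 63.2, 66.5, 62.2 and 55.8 CPM at nAT and 36.8, 35.0, 34.8 and 34.4 CPM at hAT (-0.81 ± 0.07, adjusted p = 1.04e-09), CYCB1-1, a mitotic cyclin, 30.7 to 19.1 CPM (-0.69 ± 0.07), and CDC20-2, an activator of the anaphase-promoting complex, was the exception at 71.8 to 90.23 CPM (0.33 ± 0.08). Of 48 nuclear photosystem and light-harvesting genes 0 were higher and 6 lower, and the median was -0.50. In 39 of them every hAT library lay below every nAT library, against 27.8% of all genes. LHCB2.2 (AT2G05070) had 387, 448, 357 and 497 CPM at nAT and 134, 127, 130.4 and 141 CPM at hAT (-1.67 ± 0.09, adjusted p = 1.70e-14), and AT1G29910, 1 of the near-identical LHCB1 genes, 578, 729, 542 and 745 CPM at nAT and 188, 172, 179 and 191 CPM at hAT (-1.83 ± 0.14, adjusted p = 3.98e-11). The mean length of counted genes also differed between the groups, as given above, and its part in these shifts was not tested beyond the counts of calls. With gene length as an offset in the fit, the number of all genes called was 1818 higher and 528 lower.

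Transcripts of the organelle genomes have few poly(A) tails, and their level in these libraries depends on how much of them the selection kept. Of the 152 mitochondrial genes, 33 passed the filter on low counts. Of these 18 were higher and 0 lower, with a median of 1.22. With no filter 30 were higher, with DESeq2 27 and with the 8 libraries of the line alone 13. COX1, a subunit of cytochrome oxidase, had 1.05, 1.098, 1.44 and 1.44 CPM at nAT and 3.64, 2.95, 3.25 and 3.02 CPM at hAT, a log2 fold change of 1.36 ± 0.28 (adjusted p = 2.09e-04). The ribosomal RNA genes RRN18 and RRN26, which made up most of the mitochondrial counts, had 135 to 159 CPM and 102 to 106 CPM (0.24 ± 0.19 and 0.06 ± 0.20, not called). Of 62 chloroplast genes 1 was higher and 3 lower, among them RPOB, a subunit of the plastid RNA polymerase, with 13.7, 10.3, 13.6 and 12.3 CPM at nAT and 5.95, 6.52, 5.42 and 5.36 CPM at hAT (-1.10 ± 0.15, adjusted p = 1.34e-06). Of 12 sulfur deficiency genes 1 was lower, SDI1, from 15.0 to 6.61 CPM. Over all tested genes 8.50% were higher and 2.48% lower.

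The 10 named genes with the largest falls were chosen among those whose groups did not overlap. GRP3S, a short glycine-rich protein of the cell wall, had 9.39, 9.48, 10.3 and 7.76 CPM at nAT and 0.553, 0.582, 0.424 and 0.549 CPM at hAT, a log2 fold change of -4.12 ± 0.21 (adjusted p = 7.85e-15). WSCP, a Kunitz-type protease inhibitor that binds chlorophyll derivatives, had 1426, 1503, 1462 and 1349 CPM at nAT and 323, 304, 318 and 329.8 CPM at hAT (-2.17 ± 0.06, adjusted p = 1.27e-20). RDL5 (AT4G11320), a papain-like cysteine protease, had 360.4, 348, 353 and 398 CPM at nAT and 75.1, 70.6, 77.3 and 77.7 CPM at hAT (-2.28 ± 0.08, adjusted p = 9.78e-18). SBT4.13, a subtilisin-like protease, had 199, 216, 209 and 225 CPM at nAT and 45.8, 44.3, 44.3 and 44.4 CPM at hAT (-2.25 ± 0.09, adjusted p = 1.20e-16). ARD, an acireductone dioxygenase of the methionine cycle, fell from 5.78 to 0.522 CPM (-3.47 ± 0.24), and DTX26, a MATE transporter, from 6.60 to 1.12 CPM (-2.55 ± 0.15). LTP10, a lipid transfer protein, fell from 13.8 to 2.41 CPM, PER33, a class III peroxidase, from 18.3 to 3.82 CPM, and MLP328, of the major latex protein family, from 10.1 to 2.22 CPM (-2.53 ± 0.16, -2.26 ± 0.13 and -2.19 ± 0.12). Lower genes made up 13.4% of all tested genes in Col-0 and 3.46% in phyB. All 10 passed the test as lower in Col-0, and 8 in phyB, where DTX26 (-0.99) and PR5 did not reach a 2-fold change. The log2 fold changes in phyB and Col-0 were -4.58 and -4.44 for GRP3S, -2.23 and -2.13 for WSCP and -0.84 and -1.93 for PR5.

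**Figure D4:**
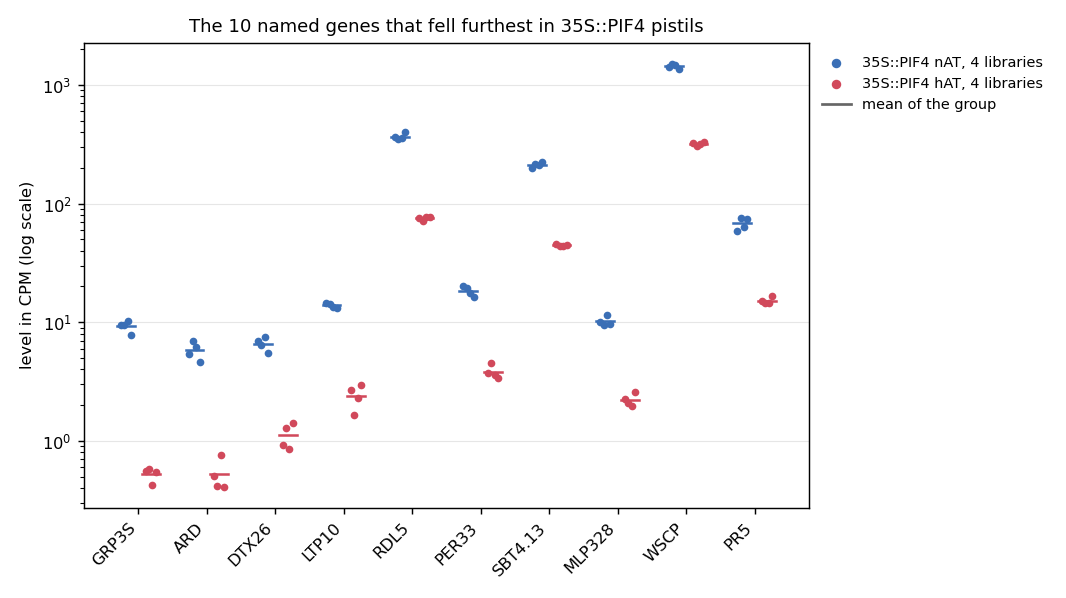
Points are the level in CPM (log axis) of the 10 named genes with the largest falls in each 35S::PIF4 library, blue at nAT and red at hAT, with lines at the group means. The genes were chosen to have no overlap between the groups, and the means went from 9.24 to 0.527 CPM in GRP3S to 1435 to 319 CPM in WSCP.

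The response of 35S::PIF4 was set against that of phyB, the other line with altered phytochrome B-PIF signalling, with which it shares no library. The difference between the log2 fold changes was tested gene by gene as an interaction term in the same fit. It was larger in 35S::PIF4 in 1164 genes (5.46%) and smaller in 191 (0.896%), at the same thresholds. In phyB 4.63% of all tested genes were higher at hAT and 3.46% lower. Of the 1811 genes higher in 35S::PIF4, 705 were also higher and 51 lower in phyB. Of the 528 lower genes, 202 were also lower and 5 higher.

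Heat shock genes carried the largest differences. In the 6 heat shock lists 40 of 77 genes had a larger response in 35S::PIF4 and 0 a smaller response, and in phyB itself 6 were higher and 10 lower. Of the small heat shock proteins 15 of 17 had a larger response in 35S::PIF4, and their median log2 fold change was 6.59 there and -0.88 in phyB, where 1 was higher and 7 lower. HSP17.7 went from 8.46 to 1.84 CPM in phyB (log2 fold change -2.24, adjusted p = 3.28e-11), and its response differed by 13.59 ± 0.28 (adjusted p = 1.26e-22). HSFA7A went from 4.01 to 0.429 CPM in phyB and differed by 9.22 ± 0.47 (adjusted p = 4.97e-14). HSFA7B had 90 counts at nAT and none at hAT in phyB, a fall of at least 32.1-fold against a floor of 3 counts over the group, and the fitted difference of 15.77 is not a bound. HSFA2, which rose from 5.83 to 204 CPM in 35S::PIF4, went from 33.2 to 21.1 CPM in phyB (-0.67) and differed by 5.77 ± 0.29 (adjusted p = 2.90e-14). MED37C and HSP90-1 rose in both lines but further in 35S::PIF4: MED37C went from 68.4 to 509 CPM in phyB (2.89) and differed by 5.16 ± 0.20 (adjusted p = 1.23e-16), and HSP90-1 from 29.0 to 129.6 CPM (2.16) and differed by 4.95 ± 0.12 (adjusted p = 8.10e-21). CLPB1 went from 75.4 to 67.2 CPM in phyB and differed by 5.10 ± 0.18 (adjusted p = 1.58e-17).

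In phyB 7 of 9 synergid, 6 of 7 egg cell and 2 of 9 central cell genes were higher at hAT, against 4.63% of all tested genes. The response was larger in 35S::PIF4 than in phyB for 5, 6 and 5 of them. EC1.3 went from 2.23 to 12.1 CPM in phyB, LURE1.3 from 1.09 to 9.61 CPM and MEA from 1.29 to 2.30 CPM, and the responses differed by 1.57 ± 0.29 (adjusted p = 2.57e-04), 3.37 ± 0.45 (adjusted p = 3.90e-06) and 2.49 ± 0.39 (adjusted p = 3.01e-05). Of the clock genes 6 of 18 had a larger response, with CCA1 at 1.62 ± 0.20 (adjusted p = 8.70e-07), and of the cold-regulated genes 6 of 19, with KIN1 at 3.36 ± 0.26 (adjusted p = 4.50e-10). The 5 named genes with the largest differences in the other direction were CYP71B26, NFYA10, AT1G29910, FBA5 and GPRI1. CYP71B26, a cytochrome P450, fell from 19.7 to 8.15 CPM in 35S::PIF4 and went from 10.9 to 24.4 CPM in phyB, a difference of -2.44 ± 0.26 (adjusted p = 1.37e-07). NFYA10, a CCAAT-binding factor subunit, differed by -2.21 ± 0.31 (adjusted p = 8.89e-06), the light-harvesting gene AT1G29910 by -1.82 ± 0.19 (adjusted p = 1.18e-07), the aldolase gene FBA5 by -1.81 ± 0.23 (adjusted p = 1.99e-06) and GPRI1 (GLK1), an activator of photosynthesis genes, by -1.70 ± 0.14 (adjusted p = 1.34e-09).

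**Figure D5:**
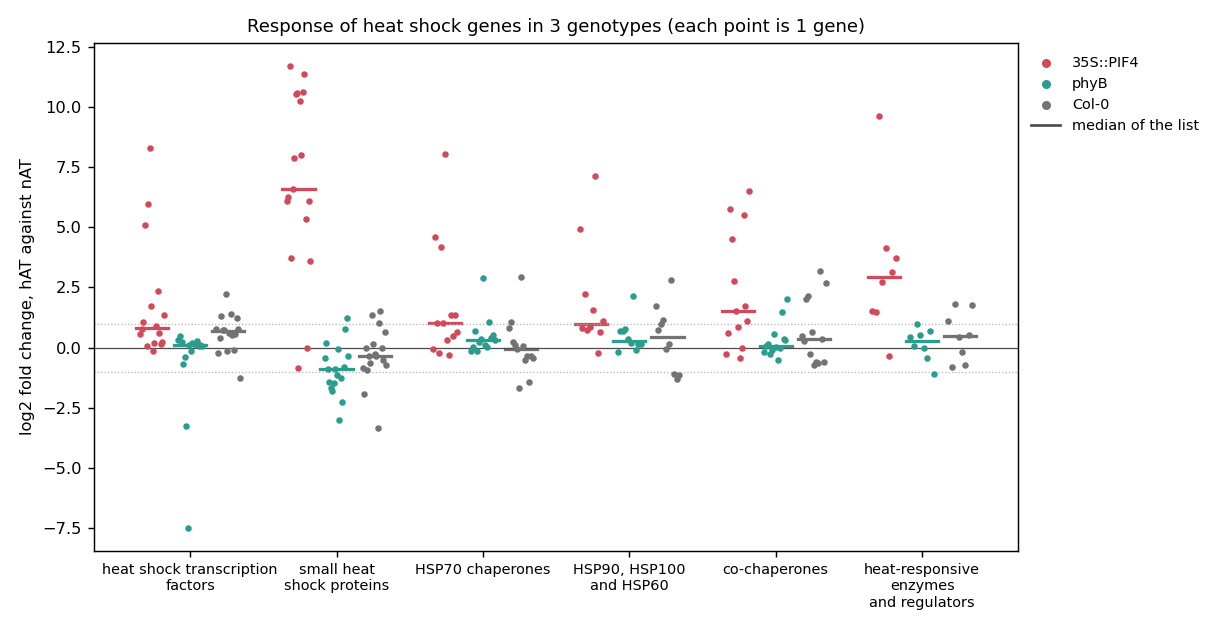
Each point is the log2 fold change (hAT against nAT) of 1 gene of the 6 heat shock lists in 35S::PIF4 (red), phyB (green) or Col-0 (grey), lines are list medians and dotted lines mark a 2-fold change. The small heat shock proteins have medians of 6.59, -0.88 and -0.34.

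Against Col-0 the response was larger in 2510 genes (11.8%) and smaller in 4126 (19.4%). The Col-0 libraries at nAT stand apart from the other 20: their counts came from genes of 1612 to 1804 bases on average, and with a gene-length offset the total of 6636 genes was 4764. In the 6 heat shock lists 48 of 77 genes had a larger response than in Col-0 and 2 a smaller response. In Col-0 itself 15 of the 77 were higher at hAT and 7 lower. Of all 21312 tested genes, 5151 were higher in Col-0 and 2856 (13.4%) lower. HOP3, MED37C and HSP90-1 rose in Col-0 by 3.19, 2.94 and 2.80 on the log2 scale, less than in 35S::PIF4. HSP17.6C had 0.0829 to 0.086 CPM in Col-0 and differed by 11.72 ± 1.96 (adjusted p = 8.77e-06), HSP23.6 0.242 to 0.191 CPM (10.60 ± 1.25, adjusted p = 3.97e-08) and HSP22.0 0.141 to 0.168 CPM (10.46 ± 1.18, adjusted p = 1.74e-08). HSP21 had 3 counts at nAT and none at hAT in Col-0, and its fitted difference was 11.33. The 2 HSFA1 genes with a smaller response than Col-0 were HSFA1A (-1.20 ± 0.25, adjusted p = 1.38e-04) and HSFA1B (-1.09 ± 0.13, adjusted p = 3.09e-08). The embryo sac genes rose in Col-0 as well. There 8 of 9 synergid, 7 of 7 tested egg cell and 5 of 9 central cell genes were higher at hAT, against 5151 of 21312 tested genes. Their median log2 fold changes in Col-0 were 6.30, 4.66 and 1.87. EC1.3 went from 0.273 to 16.2 CPM and MEA from 0.363 to 4.07 CPM in Col-0. LURE1.2 and LURE1.5 had smaller responses than in Col-0 by -5.46 ± 1.67 (adjusted p = 0.006) and -4.74 ± 1.36 (adjusted p = 0.00325). In Col-0 they had 0 and 1 counts at nAT and 1446 and 2142 at hAT, so the fitted differences and their ± values depend on the prior count. CYCB1;5 and CYCJ18, cyclins, and LIP2 (AT3G02810), a receptor-like kinase of pollen tubes, differed by -4.67 ± 0.31 (adjusted p = 1.53e-12), -4.42 ± 0.27 (adjusted p = 2.01e-13) and -4.35 ± 0.70 (adjusted p = 4.89e-06), and in 35S::PIF4 itself they had 5.02 to 6.21 CPM, 4.31 to 3.97 CPM and 1.96 to 4.12 CPM.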

How the data were processed

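RNA-seq of pistils was measured in 24 libraries of 6 groups, 4 libraries each, and grouped by the sample titles. The authors trimmed the reads, aligned them to TAIR10 and counted them per Araport11 gene with featureCounts, and they deposited whole-number counts for 33055 genes, which were used as deposited. The sources used here do not give the aligner, the strand setting, the treatment of shared reads or any batch. A deposited FPKM table was not used, and 0 sample columns of the count table were left unused.

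Genes were filtered with filterByExpr, libraries were scaled by TMM, and edgeR 4.0.16 (R 4.3.3, limma 3.58.1) fitted the 6 group means to all 24 libraries by quasi-likelihood, with 18 residual degrees of freedom and Benjamini-Hochberg adjustment over the 21312 tested genes. Calls required an adjusted p below 0.05 and a log2 fold change of 1 or more in size. The study's own test was DESeq2, which was run as an alternative (version 1.42.0), beside other size factors, no filter, other sets of libraries, a gene-length offset, a replicate block, other fold thresholds and each library left out. The fit was tested on simulated counts of 21036 genes for the comparison of 35S::PIF4 at hAT with nAT. By adjusted p and direction alone, it recovered 94% of 50 genes raised by a fold of 2 and 92% of 50 lowered to 0.5 of their level. The changed genes were drawn from those above 1 CPM on average over the 24 libraries, and the fold threshold was not applied. These shares are therefore not those of the calls, since 1126 of the 1811 higher genes lay below 1 CPM at nAT. Members and gene lists were chosen with earlier results of these data known, and plastid genes and PSAT genes that matched the photosystem list by symbol were taken out after their values were seen. Genes named were PIF4 and PHYB, the 10 largest rises and the 10 largest falls (called, with a symbol, reaching 5 CPM, no overlap), up to 4 members of each list by size of change plus members needed to describe it, and the 5 largest differences in response in each direction. A few list members were named outside these limits after their values were seen. Totals of 19421636 to 30184035 counts set the precision, and intervals cover counting error only. Promoters came from the RefSeq reference of TAIR10.1, in which 99.95% of 32548 genes had the position given by the deposited table. Plots were drawn with matplotlib 3.10.9.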

Additional observations from a re-analysis of the deposited data

Results flagged for a closer look

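In 384 groups of 4 libraries (192 named genes at both temperatures), 23 groups (5.99%) had a library apart from the other 3 by Dixon's criterion, where chance gives about 1 in 20. Replicate 4 at nAT was the library in 7 of them. It was the highest for LURE1.3 at 0.418 CPM (others 0 to 0.0665), RALFL29 at 0.836 CPM (others 0.117 to 0.133), ADO3 at 0.975 CPM (others 0.421 to 0.505) and LCR65 at 0.0465 CPM (others 0). It was the lowest for CHI1 at 145 CPM (others 184 to 189.6), FLS1 at 379 CPM (others 496 to 519) and GH3.3 at 20.5 CPM (others 22.5 to 22.7). At nAT, replicate 2 was the highest for PIF4 at 6.39 CPM, HSFA7B at 0.0665 CPM and GPRI1 at 39.9 CPM. Replicate 1 was the highest for HSP21 at 0.253 CPM and the lowest for EC1.2 at 0 CPM, and replicate 3 was the highest for AP3 at 39.2 CPM. At hAT, replicate 1 was the highest for HEC3 at 17.5 CPM, COR15B at 1.29 CPM, FLS1 at 210.5 CPM and SBT4.13 at 45.8 CPM and the lowest for CYP71B26 at 6.50 CPM. Replicate 3 was the lowest for HSFA1A at 10.3 CPM, HSP70-5 at 175 CPM and BEL1 at 30.0 CPM, and replicate 4 was the highest for AT1G31450 at 17.76 CPM and CYP75B1 at 45.5 CPM.

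The log2 response to hAT differed between lines by an interaction term in edgeR for the named genes with the largest differences. It was larger in 35S::PIF4 than in phyB by 15.77 for HSFA7B, 13.59 for HSP17.7, 12.58 for HSP17.6C, 11.98 for HSP17.4A and 11.87 for HSP17.6. The values, 35S::PIF4 minus phyB, were -2.44 for CYP71B26, -2.21 for NFYA10, -1.82 for AT1G29910, -1.81 for FBA5 and -1.70 for GPRI1. It was larger than in Col-0 by 11.72 for HSP17.6C, 11.33 for HSP21, 10.60 for HSP23.6, 10.46 for HSP22.0 and 9.83 for HSP17.7. The values, 35S::PIF4 minus Col-0, were -5.46 for LURE1.2, -4.74 for LURE1.5, -4.67 for CYCB1;5, -4.42 for CYCJ18 and -4.35 for LIP2 (AT3G02810).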

How the results depend on the processing

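With a log2 fold threshold of 2 the counts fell to 749 higher and 82 lower genes, and with no fold threshold they were 5451 and 5870. Under the other alternatives 1609 to 2163 genes were higher and 448 to 608 lower, the most with DESeq2's Wald test (2163 and 575) and no filter (2147 and 608) and the fewest with the 8 libraries of the line alone. DESeq2 shared 1803 of the 1811 higher and 510 of the 528 lower genes. Leaving out each library in turn gave 1760 to 1974 higher genes, the highest without replicate 4 at nAT, and 498 to 546 lower genes. Same-numbered libraries did not deviate together (correlations of -0.035 to 0.017), so the numbers were not taken as pairs, and a replicate block gave 1786 higher and 518 lower genes. Genes differing in response numbered 1243 to 1526 against phyB and 4764 (gene-length offset) to 7021 against Col-0. Of 191 log2 fold changes of named genes, 179 kept their direction and side of the threshold under each alternative run, and 0 reversed. Calls of HSFA8, AGL61, LCR26, AMS, BCP1, PR1, FBA5 and AT3G02810 were lost in at least 1 alternative. Those of HAP2 as lower and of GID1C, GRP17 and PME5 as higher were gained. The causes were not tested. Of the higher genes, 30 had no count and 80 had 1 to 3 counts over the nAT libraries.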

Other observations

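Genes outside the protein-coding class were also called. Of 48 tested miRNA genes 7 (14.6%) were higher and 0 lower, of 102 snoRNA genes 19 (18.6%) were higher and 2 (1.96%) lower, and of 340 lncRNA genes 38 (11.2%) were higher and 9 (2.65%) lower, against 8.50% and 2.48% of all tested genes, with median log2 fold changes of 0.26, 0.17 and 0.15 against -0.02 for 20476 protein-coding genes. Of 181 tested transcripts without an annotated class 37 (20.4%) were higher and 10 (5.52%) lower, with a median of 0.31. The libraries were selected by poly(A), which miRNA precursors and snoRNAs carry only in part, and the part of that selection in these counts was not tested.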
